A study of Mus musculus with 20 samples.

Results

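Nfe2, Pdzk1ip1, Adam11 and Ly6a are 4 genes chosen by their levels in the liver of obese mice, because they differed between high-fat diets (HFDs) whose protein came in part from fishmeal made of salmon, from salmon filet or from beef. They are 4 of the 55487 genes in the count table, of which 21936 are protein coding. RNA was sequenced from the liver of 20 female C57BL/6J mice, 1 library per mouse. Feeding began at 8 weeks of age and livers were taken at 28 weeks. The control mice received chow throughout, while the other mice were first made obese on an HFD and then given, over 10 weeks, an isocaloric HFD with 50% of its protein from 1 of these sources. All sequenced HFD mice thus shared the earlier HFD feeding, and none of the 20 was kept on the unmodified HFD. By the paper, the exchanged diets also differed in cholesterol, which was highest with fishmeal, and in added soybean oil and fatty acids. Protein source cannot be told apart from these other differences here. By the labels there were 5 chow-fed mice, 5 fishmeal mice, 6 salmon filet mice and 4 beef mice. Mouse 31 is labelled salmon filet, but the column name of its counts ends in Beef, which would give 5 mice in each group. The paper describes equal numbers of sequenced mice per diet, which the column names give and the labels do not. Mouse numbers also rise by group, with 22 to 27 in the other salmon filet mice and 32 to 40 in beef. The number 31 is next to the beef numbers, so the label is probably wrong. Values with the labels then hold a beef mouse in the salmon filet group. Mouse 31 is therefore named separately for each gene. Group values are given with the labels, without mouse 31, or with the column names, as stated. Because the HFD groups themselves chose the 4 genes, their values between HFD groups are a description and carry no test. The chow mice were not used in the choice, and HFD versus chow was tested. The HFD values in that test are nonetheless the ones that chose the genes, so it is not independent of the choice.

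The 4 genes are not members of 1 pathway. Nfe2 encodes the large subunit of the transcription factor NF-E2, which pairs with small Maf proteins and is best known for globin gene expression in red cell precursors and for platelet formation by megakaryocytes. Pdzk1ip1, also called MAP17, encodes a small membrane protein that binds the scaffold protein PDZK1, and PDZK1 in turn holds the HDL receptor Scarb1 at the hepatocyte surface. Adam11 belongs to the ADAM family of membrane proteins but lacks protease activity and is known mainly from neurons, where it binds LGI proteins. Ly6a encodes Sca-1, a GPI-anchored surface protein of haematopoietic stem cells, lymphocytes and endothelial cells that is induced by interferons.

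The libraries held 42526234 to 70266136 counts on genes. The share on protein coding genes was 93.2% to 95.6%, but 84.3% in beef mouse 35. No pair of libraries within a group agreed within sampling noise, with at least 35.1 for the chi-square per gene over 41 pairs. Levels are given as CPM, the counts scaled to library size with TMM factors over the 20 libraries, and levels of different genes are compared only in TPM, which also accounts for gene length. Markers of hepatocytes defined the tissue in every library, with a sum over 8 genes of 91100 to 124000 CPM across the groups. Liver was sampled whole, so fewer cells of a type and less RNA per cell cannot be told apart. Where p-values are given, they set a difference against the spread between these mice. In HFD versus chow the HFD groups were pooled, so that spread includes the differences between them.

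All 4 genes were low or moderate in liver. Averaged over the mice, Ly6a had 20.9 TPM, Pdzk1ip1 had 3.37 TPM, Adam11 had 3.02 TPM and Nfe2 had 1.2 TPM. Of the 17355 protein coding genes with any signal, 3128 lay above Ly6a and 10727 above Nfe2. The genes lie apart in the genome (GRCm38). Nfe2 (ENSMUSG00000058794) is on chromosome 15 at 103248212 to 103258403 on the minus strand, and Ly6a (ENSMUSG00000075602) is on the same chromosome at 74994877 to 74998031, also on the minus strand. Pdzk1ip1 (ENSMUSG00000028716) is on chromosome 4 at 115088708 to 115093899 and Adam11 (ENSMUSG00000020926) on chromosome 11 at 102761439 to 102780262, both on the plus strand. No annotated gene overlaps any of the 4. Transcripts of Ly6a share long stretches with Ly6c1 (96.6% identity over 263 bases), Ly6c2 (94.3% over 245 bases), Ly6i (92.6% over 336 bases) and Ly6g (90.7% over 118 bases). How reads that fit several genes were counted is not given in the sources used here, so the split between Ly6a and these relatives is uncertain. In no library did any of these relatives exceed 0.746 CPM, whereas Ly6a was never below 5.43 CPM.

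Of the 4 genes, the promoter of Pdzk1ip1 was in the RefSeq table (GRCm38.p6, chr4:115088458-115088757, plus strand). It is shown because Pdzk1ip1 and Nfe2 were high and low together across the groups. Capitals mark the palindromic E-box CACGTG, and the 300 bases end just after the start site.
Pdzk1ip1 promoter: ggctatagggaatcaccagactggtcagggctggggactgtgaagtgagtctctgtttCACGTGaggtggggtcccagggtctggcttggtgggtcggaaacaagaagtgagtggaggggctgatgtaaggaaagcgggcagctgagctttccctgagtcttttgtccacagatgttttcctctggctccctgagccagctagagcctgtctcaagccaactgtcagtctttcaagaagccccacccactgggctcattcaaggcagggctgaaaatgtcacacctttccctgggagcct
The E-box begins at position -192 from the start site, and 7.15% of the 32851 promoters in the table hold one. Both strands were also searched for the NF-E2 core TGAGTCA, the GATA motif AGATAA and the sterol regulatory element TCACNCCAC, which are in 5.2%, 11.2% and 1.24% of promoters. These letters were not found in the Pdzk1ip1 window. The motifs do not overlap one another and were picked after the expression values had been seen.

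Nfe2 was lowest with fishmeal. The fishmeal mice had 0.438, 0.295, 0.166, 0.367 and 0.0899 CPM (mice 12, 13, 14, 16 and 20), which are 4 to 26 counts per library. Salmon filet mice 22, 23, 25, 26 and 27 had 1.5, 1.60, 1.58, 1.97 and 2.03 CPM. Every fishmeal mouse was thus below every salmon filet mouse, and this also held for mouse 31 at 0.742 CPM. The beef mice 32, 35, 39 and 40 had 1.3, 0.857, 0.348 and 0.480 CPM, between both and overlapping the fishmeal range. The chow mice 1, 2, 5, 7 and 10 spread most widely, with 1.2, 3.26, 3.50, 5.55 and 1.05 CPM. The order of the means was chow at 2.92 ± 1.86 (SD, n = 5), salmon filet at 1.57 ± 0.460 (n = 6 as labelled), beef at 0.737 ± 0.412 (n = 4) and fishmeal at 0.271 ± 0.143 (n = 5). Neighbours in this order overlapped. Chow mice 1 and 10 were below all salmon filet mice other than mouse 31, beef mouse 39 was inside the fishmeal range, and salmon filet overlapped beef only through mouse 31. By column name, salmon filet averaged 1.74 ± 0.242 CPM and beef 0.738 ± 0.357 CPM (SD, n = 5 each), without overlap. The salmon filet mean was 5.79-fold the fishmeal mean as labelled and 6.40-fold by column name.

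Pdzk1ip1 separated salmon filet from both other HFD groups. Salmon filet mice 22, 23, 25, 26 and 27 had 3.22, 2.12, 3.88, 2.83 and 2.89 CPM. The fishmeal mice had 1.62, 0.979, 0.563, 0.612 and 1.06 CPM (mice 12, 13, 14, 16 and 20), and the beef mice 0.939, 1.38, 0.952 and 1.2 CPM (mice 32, 35, 39 and 40). The beef range lay inside the fishmeal range, and every mouse of both groups was below the lowest of the 5 salmon filet mice. Mouse 31, at 1.3 CPM, was inside the fishmeal and beef ranges. The chow mice had 3.17, 8.37, 1.71, 5.21 and 2.43 CPM (mice 1, 2, 5, 7 and 10), and each of them was above every fishmeal and beef mouse. Chow averaged 4.18 ± 2.68 CPM (SD, n = 5), against 2.99 ± 0.641 for the 5 salmon filet mice without mouse 31, 1.1 ± 0.214 for beef (n = 4) and 0.966 ± 0.424 for fishmeal (n = 5). The chow mean rested in part on mouse 2 and was 3.13 ± 1.51 CPM without it (n = 4), a level that overlapped the salmon filet mice.

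Adam11 was lowest with beef and most even with fishmeal. The beef mice 32, 35, 39 and 40 had 1.72, 4.57, 4.99 and 5.37 CPM, and the fishmeal mice 12, 13, 14, 16 and 20 had 9.20, 8.32, 7.37, 8.33 and 9.05 CPM. The groups did not overlap, and the coefficient of variation in the fishmeal group was 8.61%. The salmon filet mice were spread more widely, with 6.09, 17.3, 6.11, 4.37 and 2.51 CPM in mice 22, 23, 25, 26 and 27. None of them was inside the fishmeal range. Mouse 23 had the highest value of all 20 mice, and without it the 4 others averaged 4.77 ± 1.71 CPM (SD), close to the beef mean of 4.16 ± 1.66 CPM (n = 4). Mouse 31 had 2.43 CPM, below all salmon filet mice and inside the beef range. The chow mice had 7.41, 6.08, 5.75, 9.77 and 9.53 CPM (mice 1, 2, 5, 7 and 10), which overlapped fishmeal and lay wholly above beef. In means, fishmeal was at 8.45 ± 0.728 CPM and chow at 7.71 ± 1.88 CPM (SD, n = 5 each), which differed by less than the spread in chow.

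Ly6a was lowest with salmon filet. Salmon filet mice 22, 23, 25, 26 and 27 had 5.50, 7.11, 7.24, 5.76 and 6.79 CPM, and the fishmeal mice 12, 13, 14, 16 and 20 had 10.7, 8.44, 13.9, 12.3 and 9.14 CPM. These groups did not overlap, and mouse 31 had the lowest value of all mice at 5.43 CPM. Beef was split, with 14.4 CPM in mouse 32 and 5.78, 8.00 and 7.17 CPM in mice 35, 39 and 40. The beef mean of 8.83 ± 3.81 CPM (SD, n = 4) was 6.98 ± 1.1 CPM without mouse 32 (n = 3), close to the 6.48 ± 0.798 CPM of the 5 salmon filet mice without mouse 31. The chow mice had 14.2, 16.6, 14.2, 12.2 and 13.3 CPM (mice 1, 2, 5, 7 and 10), the narrowest relative spread of chow for any of the 4 genes, at 11.6% of the mean. Chow averaged 14.1 ± 1.64 CPM and fishmeal 10.9 ± 2.25 CPM (SD, n = 5 each), and 3 chow mice were above every fishmeal mouse.

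**Figure D1:**
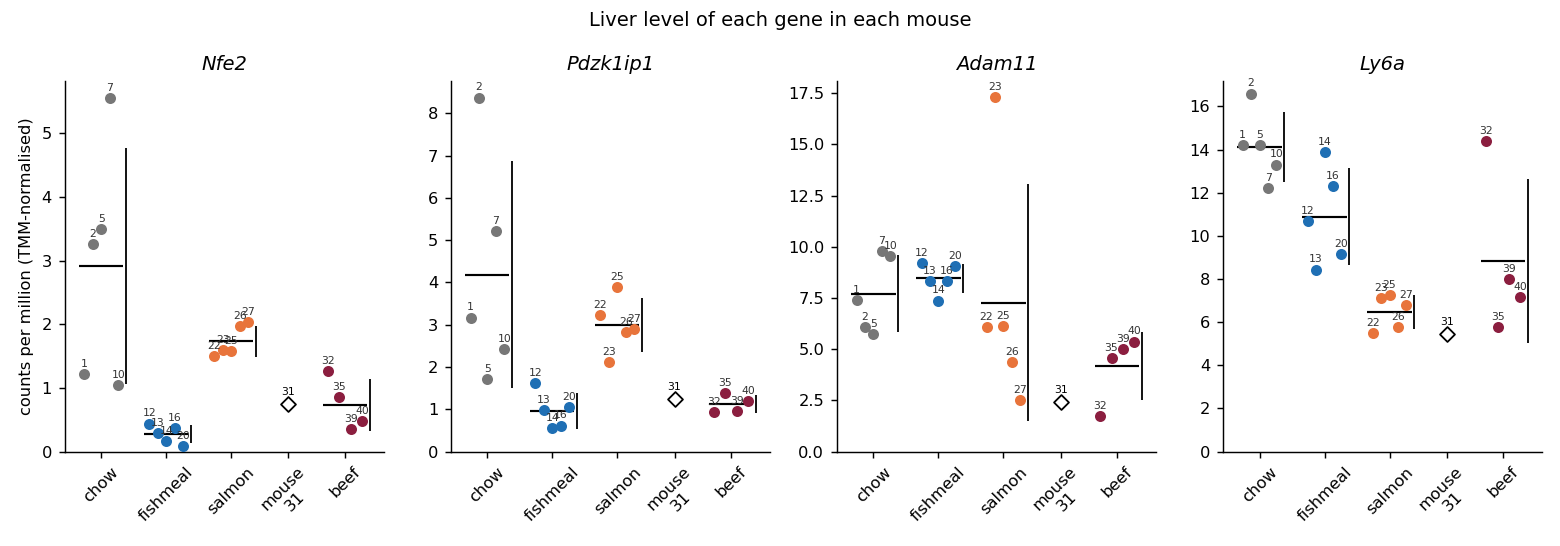
Level of Nfe2, Pdzk1ip1, Adam11 and Ly6a in TMM-normalised CPM (y axis, linear from 0) in each of the 20 mice, 1 point per mouse with its number, horizontal lines for the group mean and vertical lines for the SD. Mouse 31 is drawn apart as an open diamond and is in no mean: at 0.742 CPM for Nfe2 and 1.3 CPM for Pdzk1ip1 it lies below the 5 salmon filet mice, and mouse 23 for Adam11 and mouse 32 for Ly6a stand far from their groups.

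Mouse 31 was outside the range of the other 5 salmon filet mice for each of the 4 genes. On the log2 CPM scale it differed from their mean by -1.18 for Nfe2 (salmon filet SD 0.194), -1.21 for Pdzk1ip1 (SD 0.314), -1.27 for Adam11 (SD 1.01) and -0.24 for Ly6a (SD 0.181). For Adam11 and Ly6a it was just below the lowest of them, and for Nfe2 and Pdzk1ip1 well below. It was inside the range of the 4 beef mice for Nfe2, Pdzk1ip1 and Adam11, and for Ly6a it was below both groups. From the beef mean it differed by 0.17 for Nfe2 (beef SD 0.788), 0.17 for Pdzk1ip1 (SD 0.263), -0.64 for Adam11 (SD 0.762) and -0.61 for Ly6a (SD 0.560). In mouse 31 the clock genes Dbp and Arntl were outside the range of the other HFD mice. Dbp, a clock-controlled transcription factor, was at 1.2 CPM in mouse 31, at 3.82 to 93.2 CPM in the 5 salmon filet mice, at 11.2 to 114 CPM in beef, at 5.64 to 76.4 CPM in fishmeal and at 0.748 to 2.26 CPM in chow. Arntl, the clock activator with the opposite phase, was at 35.9 CPM in mouse 31, at 6.73 to 32.2 CPM in the 5 salmon filet mice, at 4.70 to 22.1 CPM in beef, at 6.27 to 28.8 CPM in fishmeal and at 29.7 to 41.4 CPM in chow. For both genes mouse 31 was inside the chow range, as was the highest of the 5 salmon filet mice for Arntl. The part of these differences in the values of the 4 genes was not tested.

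With HFD, Nfe2, Pdzk1ip1 and Ly6a fell and Adam11 did not pass the test. The 15 HFD mice, whatever their protein source, were compared with the 5 chow mice, so that the group of mouse 31 did not matter. Nfe2 changed by -1.66 on the log2 scale (SE 0.476, adjusted p = 0.0287, edgeR quasi-likelihood test with Benjamini-Hochberg adjustment). For Nfe2, 15 of 15 HFD mice were below the chow mean, but 9 were below the lowest chow mouse. Pdzk1ip1 changed by -1.30 (SE 0.376, adjusted p = 0.0300 in the same edgeR fit). Again 15 of 15 HFD mice were below the chow mean, but 10 were below the lowest chow mouse. Ly6a changed by -0.73 (SE 0.196, adjusted p = 0.0203 in the same edgeR fit), with 14 of 15 HFD mice below the chow mean and 12 below the lowest chow mouse. The HFD mean of Ly6a was 8.51 ± 2.99 CPM (SD, n = 15), and the HFD mouse above the chow mean was beef mouse 32. Adam11 changed by -0.24 (SE 0.344, adjusted p = 0.724 in the same edgeR fit), with 10 of 15 HFD mice below the chow mean. Thus 3 of the 4 genes were called, all lower with HFD, whereas 9.75% of the 17120 genes tested were called and 5.21% were called lower. The HFD mice in this test also chose the 4 genes, so these shares are no even standard for them, and nothing is read from the contrast. These 3 calls depended on single chow mice. For Nfe2, edgeR gave an adjusted p = 0.151 without mouse 7, 0.0690 without mouse 2 and 0.0616 without mouse 5. For Pdzk1ip1, it gave an adjusted p = 0.199 and a change of -0.88 without mouse 2, and 0.0916 without mouse 7. For Ly6a, it gave an adjusted p = 0.0671 without mouse 2 and 0.0510 without mouse 1. Clock genes also differed in this comparison: 9 of 14 were called, with Dbp higher with HFD by 4.7 (adjusted p = 0.00423, edgeR). Diet and clock state thus cannot be told apart here, and the part of clock state in these changes was not tested.

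The HFD groups lay at different distances from chow, as the choice of the genes implies. Each was set against the same 5 chow mice, so the values share their controls and are given side by side without a test. Nfe2 differed from chow by -3.40 on the log2 scale with fishmeal (SE 0.512), by -1.97 with beef (SE 0.534) and by -0.88 with salmon filet (SE 0.387). The same order held for Pdzk1ip1, with -2.13 for fishmeal (SE 0.429), -1.91 for beef (SE 0.429) and -0.63 for salmon filet (SE 0.371). In mean CPM, chow was 10.8-fold above fishmeal for Nfe2 and 4.33-fold for Pdzk1ip1. Ly6a had another order, with -1.15 for salmon filet (SE 0.108), -0.68 for beef (SE 0.230) and -0.38 for fishmeal (SE 0.144). Adam11 was at 0.12 with fishmeal (SE 0.158), -0.25 with salmon filet (SE 0.425) and -0.90 with beef (SE 0.301). For Adam11, every beef mouse was below every chow mouse, while fishmeal and chow overlapped. With mouse 31 counted as beef, the salmon filet values were -0.73 for Nfe2, -0.48 for Pdzk1ip1, -1.1 for Ly6a and -0.08 for Adam11, and those of beef were -1.97, -1.88, -0.80 and -1.03.

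**Figure D2:**
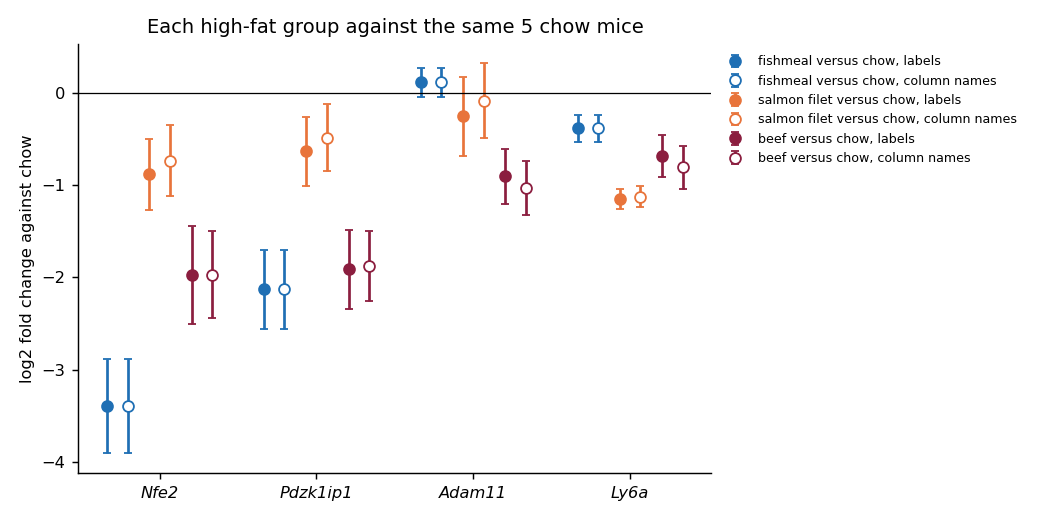
Log2 fold change of each HFD group against the same 5 chow mice (y axis) for the 4 genes (x axis), with the SE as bars, filled points for groups as labelled and open points for groups by column name. Fishmeal is lowest for Nfe2 at -3.40 and Pdzk1ip1 at -2.13, salmon filet is lowest for Ly6a at -1.15 and beef for Adam11 at -0.90.

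Between the HFD groups, the differences that chose the genes were of different kinds. Fishmeal versus salmon filet gave log2 differences of -2.50 for Nfe2 (SE 0.349), -1.48 for Pdzk1ip1 (SE 0.313), 0.79 for Ly6a (SE 0.140) and 0.38 for Adam11 (SE 0.408) with the labels. By column name they were -2.66, -1.65, 0.73 and 0.20. The value of Adam11 rested on single mice: it was 0.97 with the labels without salmon filet mouse 23, and -0.02 by column name without salmon filet mouse 27. The edgeR fit called 2 of the 4 genes with either grouping, Nfe2 and Ly6a with the labels and Nfe2 and Pdzk1ip1 by column name, against 0.157% and 0.170% of all genes tested. DESeq2 by column name, which was added after the data had been seen, called Nfe2, Pdzk1ip1 and Ly6a, against 0.594% of all genes. These calls describe how the genes were picked, and nothing is read from them.

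Fishmeal versus beef gave 1.02 (SE 0.269) for Adam11 with the labels and 1.15 (SE 0.268) by column name. Nfe2 differed more, at -1.43 (SE 0.464), with a wider error. Ly6a was at 0.30 (SE 0.250) and Pdzk1ip1 at -0.22 (SE 0.314). For Ly6a this value was 0.64 without beef mouse 32. The edgeR fit called 0 of the 4 genes with either grouping, and 0.00607% of all genes with the labels and 0.0245% by column name, with 384 and 422 genes in all at an unadjusted p under 0.05. DESeq2 by column name called Adam11 and 0.215% of all genes. These calls, too, describe the choice of the genes.

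Salmon filet versus beef was widest for Pdzk1ip1, at 1.28 (SE 0.282) with the labels and 1.4 (SE 0.188) by column name, and for Nfe2, at 1.09 (SE 0.354) and 1.2 (SE 0.282). Adam11 was at 0.65 (SE 0.521) with the labels and 0.94 (SE 0.468) by column name, but 0.06 with the labels without salmon filet mouse 23. Ly6a was at -0.48 (SE 0.211) with the labels, and -0.02 by column name without beef mouse 32. The edgeR fit called 0 of the 4 genes and 0% of all genes with either grouping. At an unadjusted p under 0.05 there were 613 and 796 genes in all. DESeq2 by column name called Pdzk1ip1 and Nfe2, and 0.0370% of all genes, and nothing is read from these calls. Since mouse 31 was below the other salmon filet mice for both, its place widened the salmon filet group with the labels and left the beef range unchanged by column name.

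**Figure D3:**
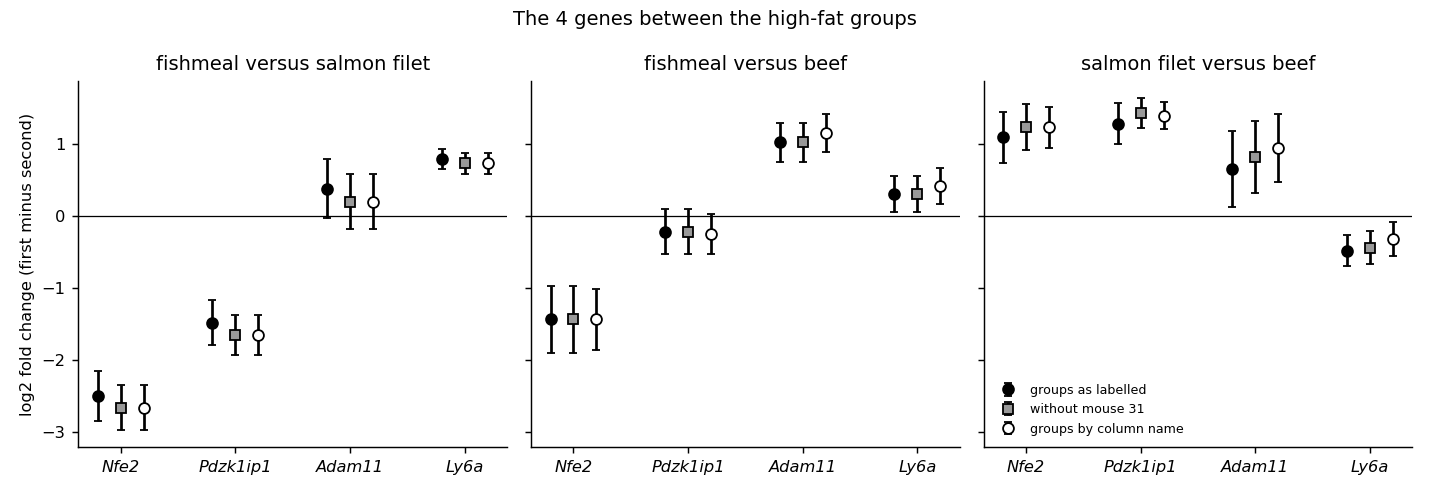
Log2 fold change between each pair of HFD groups (y axis, first minus second group) for the 4 genes (x axis), with the SE as bars, with groups as labelled, without mouse 31 and by column name. The sign of each value is the same in the 3 groupings, and the fishmeal values are lowest for Nfe2 at -2.50 against salmon filet and -1.43 against beef.

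No partner or relative of Nfe2 was called lower with HFD. Counts of called genes in this and the following lists stand beside the 9.75% of all genes called and 5.21% called lower, and nothing is read from a list with 1 or 2 calls. NF-E2 forms with small Maf proteins, and its sites are shared with the Nrf factors Nfe2l1 and Nfe2l2 and the repressors Bach1 and Bach2. Of 8 such genes, all tested, 2 rose with HFD and 0 fell, with 5 at an unadjusted p under 0.05. Mafg, a small Maf, rose by 0.64 on the log2 scale (adjusted p = 0.00218, edgeR) and averaged 53.4 CPM in chow and 79.7, 87.3 and 86.6 CPM in fishmeal, salmon filet without mouse 31 and beef. Bach2 rose by 0.72 (adjusted p = 0.0196, edgeR). Nfe2l1 (0.28, adjusted p = 0.195, edgeR) and Nfe2l2 (-0.22, adjusted p = 0.152, edgeR), the most abundant of the list with 86.9 and 50.4 mean TPM, were not called. The median change of the list was 0.28, against 0.005 over all genes. None of the 8 was called between HFD groups by edgeR with either grouping, where 7 were tested and at most 1 was at an unadjusted p under 0.05.

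No red cell or platelet gene was called lower with HFD. Of 16 erythroid genes in the table, 11 were tested, 2 rose and 0 fell. Alas2, which starts haem synthesis in red cell precursors, rose by 0.71 (adjusted p = 0.00602, edgeR), and the erythroid transcription factor Klf1 rose by 0.91 (adjusted p = 0.0113, edgeR). The globin genes Hbb-bs (0.48), Hbb-bt (0.42) and Hba-a1 (0.87) were not called, at adjusted p = 0.462, 0.570 and 0.274 in edgeR. The defining erythroid genes Gata1 and Rhag were at or near 0, with at most 4 counts and 1 count in any library. The summed erythroid level was 75.4 to 216 CPM in chow, 87.8 to 271 in fishmeal, 106 to 484 in the 5 salmon filet mice, 99.7 to 265 in beef and 138 in mouse 31. The ranges of all groups overlapped. Between fishmeal and salmon filet with the labels, Hba-a2 was at -0.68, Hbb-bt at -0.59, Hbb-bs at -0.55 and Hba-a1 at -0.46, and none of them was called (adjusted p = 0.999 each, edgeR). The part of red cells in the level of Nfe2 was not tested. Of 15 megakaryocyte and platelet genes, 8 were tested and 0 were called by edgeR, with 0 at an unadjusted p under 0.05. Their sum was 20.1 to 34.9 CPM in chow and 23.3 to 35.2 CPM in fishmeal. Of 10 antioxidant response genes, targets of the Nrf factors, 9 were tested and 1 was called: G6pdx, which makes NADPH in the pentose phosphate pathway, fell by 1.00 on the log2 scale (adjusted p = 0.0139, edgeR).

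Partners and family members of the other genes were mostly without a call. Of 10 genes of the PDZK1 scaffold and its cargo, 7 were tested and 0 were called by edgeR, with 2 at an unadjusted p under 0.05. The 5 kidney markers, of the tissue where Pdzk1ip1 is best known, summed to at most 0.0879 CPM in any library. Pdzk1 itself was at 0.06 (adjusted p = 0.732, edgeR) and averaged 94.1 CPM in chow and 94.2 CPM in salmon filet without mouse 31. Scarb1 was at 0.34 (adjusted p = 0.0708, edgeR) and the bilirubin glucuronide exporter Abcc2, with 252 mean TPM, at 0.28 (adjusted p = 0.109, edgeR). Of 15 ADAM relatives and LGI ligands, 12 were tested and 1 was called: Lgi4, a ligand of the Adam22 group, fell by 1.07 on the log2 scale (adjusted p = 0.0240, edgeR), from 4 to 33 counts per library. Adam9, the most abundant relative at 55.8 mean TPM, was at 0.00 (adjusted p = 0.992, edgeR), and Adam22 and Adam23, the nearest relatives of Adam11, were at 0.14 and -0.19 and not called.

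No other Ly6 family gene was called with HFD. Of 15 other Ly6 family genes in the table, 6 were tested and 0 were called by edgeR, with 0 at an unadjusted p under 0.05 and a median change of 0.09. Ly6e, the most abundant at 228 mean TPM, was at 0.02 (adjusted p = 0.966, edgeR), and Gpihbp1, which holds lipoprotein lipase on capillaries, at -0.03 (adjusted p = 0.891, edgeR). Of 19 interferon-stimulated genes, all tested, 0 were called by edgeR, with 3 at an unadjusted p under 0.05 and a median of 0.14. Their sum was 372 to 429 CPM in chow and 328 to 582 CPM in the 5 salmon filet mice, which had the lowest Ly6a. With HFD against chow, some marker genes of cell types that carry Sca-1 fell as Ly6a did. Of 9 endothelial genes 0 were called by edgeR, with 3 at an unadjusted p under 0.05 and a median of -0.24. Vwf (0.23) and Eng (0.04) of this list went the other way. Of 7 liver sinusoidal endothelial genes 3 fell, namely Dnase1l3 by 0.38, Fcgr2b by 0.34 and Clec4g by 0.29 on the log2 scale (adjusted p = 0.00636, 0.0110 and 0.00758, edgeR). The median of the sinusoidal list was -0.22, and its genes Stab2 (0.23) and Stab1 (0.04) went the other way without a call. Of 8 T cell genes 4 fell, among them Cd3d by 1.01 and Cd2 by 1.07 on the log2 scale (adjusted p = 0.0269 and 0.0307, edgeR). The T cell gene Cd8a was at 0.32 and not called. All 5 B cell genes fell, by 0.71 for Cd22 to 1.4 for Cd79a on the log2 scale (adjusted p = 0.00899 and 0.0137, edgeR). The summed T cell level was 4.44 to 7.14 CPM in chow, 2.73 to 4.86 in fishmeal, 1.95 to 4.91 in salmon filet without mouse 31 and 2.72 to 5.26 in beef, and the summed B cell level was 6.58 to 15.1, 3.33 to 6.09, 2.75 to 6.54 and 4.28 to 6.66 CPM. Of 7 cholangiocyte genes 1 fell, Sox9 by 0.61 on the log2 scale (adjusted p = 0.0301, edgeR). By edgeR 0 of 10 stellate cell, 0 of 8 Kupffer cell, 0 of 4 neutrophil and 0 of 2 adipocyte genes tested were called, with 0, 2, 1 and 1 at an unadjusted p under 0.05. Over the 15 HFD libraries, Pearson's r of Ly6a was -0.26 with the B cell gene Cd79a and 0.33 with the endothelial gene Pecam1. The part of these cell types in the change of Ly6a was not tested.

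Of the protein coding genes within 200 kb of the 4, Itga5 beside Nfe2 was called with HFD. There, 7 neighbours of Nfe2 were tested. Itga5, an integrin subunit, fell by 0.47 on the log2 scale (adjusted p = 0.0419, edgeR), and Cbx5 (0.02), Hnrnpa1 (-0.06), Copz1 (0.00), Smug1 (-0.11), Zfp385a (-0.15) and Nckap1l (0.02) were not called. The neighbours of Pdzk1ip1 that were tested were Tal1, a blood and endothelial transcription factor 16953 bases away, at -0.14, Stil at 0.02 and Cmpk1 at -0.06, and 0 of 3 were called by edgeR, with 0 at an unadjusted p under 0.05. Near Adam11, Eftud2 (0.01), Ccdc43 (-0.18), Gjc1 (-0.08), Gfap (0.63) and Kif18b (0.40) were tested and 0 of 5 were called by edgeR, with 2 at an unadjusted p under 0.05. Near Ly6a, the tested genes were Ly6e, Ly6c1 (0.45) and Ly6c2 (0.00), and 0 of 3 were called by edgeR, with 0 at an unadjusted p under 0.05.

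**Figure D4:**
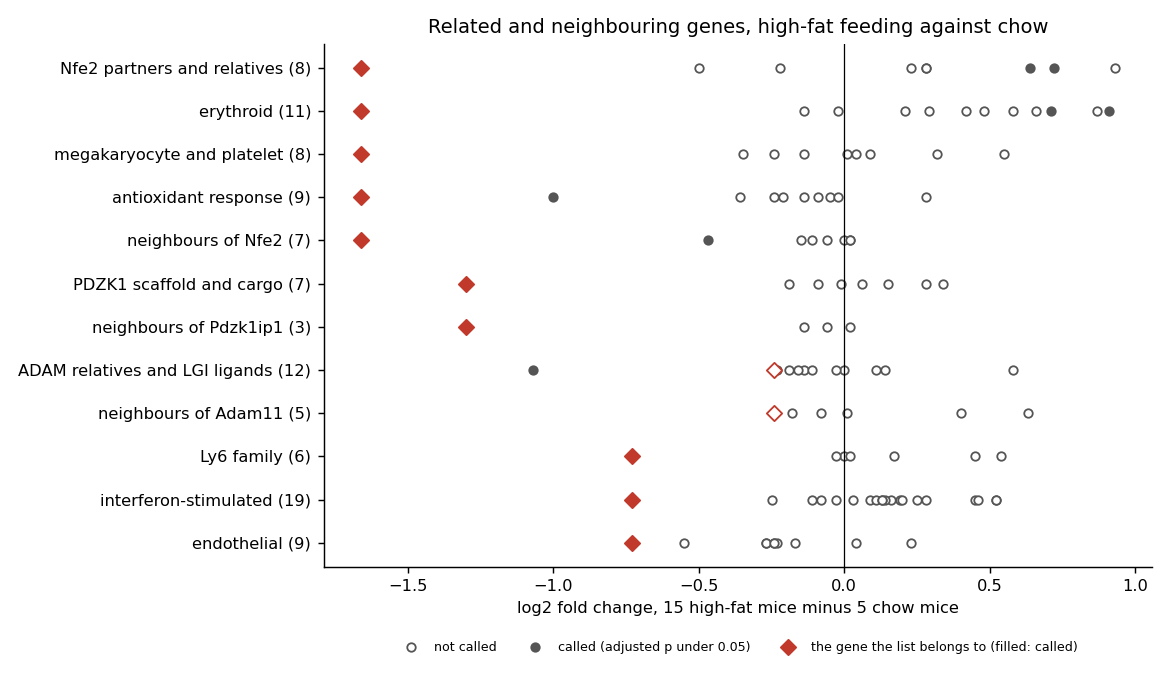
Log2 fold change of the 15 HFD mice against the 5 chow mice (x axis) for the tested genes of each list (y axis, number tested in parentheses), with filled circles for genes called by edgeR, open circles for the others and a diamond for the gene to which the list belongs. Nfe2 at -1.66, Pdzk1ip1 at -1.30 and Ly6a at -0.73 lie to the left of every gene in their lists, while Adam11 at -0.24 lies among its relatives.

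Of the 6 pairs of the 4 genes, Nfe2 and Pdzk1ip1 had the highest correlation. Over the 20 libraries Pearson's r of log2 CPM was 0.79 for Nfe2 and Pdzk1ip1, and over the 15 HFD libraries it was 0.78. Around the group means it was 0.38 with the labels and 0.27 by column name, so most of the covariation lay between groups. The HFD groups that chose both genes enter the first 2 values, which are a description. Over the 15 HFD libraries the other pairs ran from -0.68 for Pdzk1ip1 and Ly6a to 0.11 for Adam11 and Ly6a. Around the group means with the labels, these were -0.11 and -0.28.

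Likeness to the 4 genes was ranked by Pearson's r of log2 CPM over the 15 HFD libraries among the 11565 protein coding genes with a mean of at least 1 CPM. For Nfe2 the first 5 were Fdft1 (squalene synthase, 0.92), Fdps (farnesyl pyrophosphate synthase, 0.91), Acat2 (a thiolase, 0.90), Msmo1 (a sterol oxidase, 0.90) and Sqle (squalene epoxidase, 0.90). Fdps averaged 2.99 CPM with fishmeal, 12.4 CPM with beef, 16.5 CPM with salmon filet without mouse 31 and 19.6 CPM with chow, the same order as Nfe2. In mouse 31 Fdps was at 16.1 CPM, near the salmon filet mean but also inside the beef range of 6.97 to 18.0 CPM. Its Nfe2 level was in the beef range and below the other salmon filet mice. Without mouse 31, r for Fdps was 0.93 and for Fdft1 0.95. For Pdzk1ip1 the first 5 were Gramd4 (0.90), Pmvk (0.88), Podn (0.87), Tecr (0.86) and Tm7sf2 (0.85), where Pmvk is phosphomevalonate kinase and Tm7sf2 a sterol reductase. Pmvk was at 45.6 CPM in mouse 31, against 68.1 CPM in the other salmon filet mice and 43.9 CPM in beef. For Adam11 they were Csrp2 (0.86), Sntg2 (0.85), Bcl3 (0.84), 2200002D01Rik (0.84) and Myd88 (0.83), and for Ly6a Erap1 (0.88), Siae (0.87), Hat1 (0.86), Hltf (0.84) and Zfp820 (0.84). The likeness to Ly6a did not extend to chow, since over all 20 libraries r was 0.47 for Erap1 and 0.05 for Siae. For Pdzk1ip1, r over all 20 libraries was 0.68 for Gramd4, 0.49 for Podn and 0.64 for Tecr, but 0.89 for Pmvk and 0.79 for Tm7sf2. The HFD groups that chose the 4 genes enter these rankings, and no r around the group means is given for the genes ranked here. The libraries share their groups, and all these values are a description of the same 15 mice. Those for Adam11 include mouse 23, which stood far from its group, and were not computed without it.

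**Figure D5:**
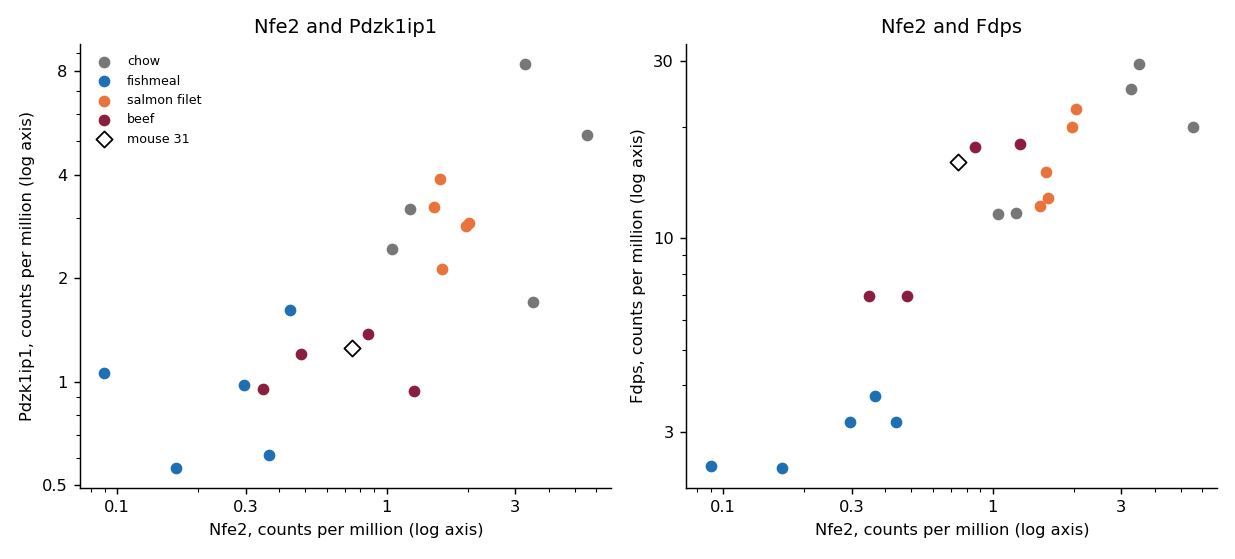
Nfe2 (x axis) against Pdzk1ip1 (left y axis) and Fdps (right y axis) in CPM on log axes, 1 point per mouse, with mouse 31 as an open diamond. Fishmeal mice hold the lowest Fdps values and overlap beef mice in Nfe2. Mouse 31, at 0.742 CPM for Nfe2 and 16.1 CPM for Fdps, lies with the beef mice on the left. On the right its Fdps level is inside both the beef and the salmon filet ranges.

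As a list, 18 cholesterol synthesis genes were set beside Nfe2 and Pdzk1ip1. With HFD, 11 fell and 0 rose, with a median of -1.02. Between fishmeal and salmon filet with the labels, 14 of 18 were called lower with fishmeal by edgeR, against 0.157% of all genes called in either direction, with a median of -1.32 against 0.011 over all genes. Between fishmeal and beef 1 of 18 was called lower, against 0.00607% of all genes, with 17 at an unadjusted p under 0.05. By column name these counts were 14 and 3 of 18. Between salmon filet and beef the median was 0.36 with the labels. Of 14 circadian clock genes, 9 were called with HFD, 7 higher and 2 lower, while by edgeR with the labels 0 of 14 were called in each HFD pair. At an unadjusted p under 0.05 these were 8 genes for salmon filet versus beef with the labels, but 0 by column name, and 0 for both other pairs with either grouping. Over the 15 HFD libraries, Pearson's r with Dbp was -0.30 for Nfe2, -0.07 for Pdzk1ip1, 0.33 for Adam11 and 0.21 for Ly6a. Adam11 had an r of 0.78 with Isg15, the only gene of the interferon-stimulated list for which a value is given. The values for Adam11 include mouse 23, its highest, and were not computed without that mouse. These values are a description.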

How the data were processed

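Liver RNA of 20 mice was sequenced as paired-end, strand-specific mRNA libraries. The authors used BBDuk for trimming, HISAT2 1.2.1 for mapping and featureCounts 1.4.6-p1 for counting on Ensembl genes. The deposited values are raw counts per gene and, in a second table, TPM, which the authors scaled to library size and gene length. The counting mode for strand is not given in the sources used here. The labels and notes print GRCh38 for mouse, and positions were taken from GENCODE M21 (GRCm38) by Ensembl identifier, which matched 55141 of 55487 genes.

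Groups followed the labels, and the endings of the column names, which differ for mouse 31, were the alternative. Counts were tested with edgeR 4.0 in R 4.3 (TMM, filterByExpr with a minimum count of 10, two-sided quasi-likelihood test, Benjamini-Hochberg adjustment over all genes, called under 0.05). CPM used TMM factors over all libraries, with a prior count of 2 on the log scale. The 4 genes, the lists and the tests were chosen with earlier results of these data known. Named are the 4 genes, tested neighbours within 200 kb, the 5 genes most like each, and from each list some called genes (up to 4) and the most abundant (up to 3). The script was tested on simulated data. Alternatives were DESeq2 1.42, limma 3.58 on log2(TPM + 1) for genes averaging 0.5 TPM or more, other normalisations and filters, a fit on all 4 groups, mouse 31 left out, and each mouse left out in turn. Lists were described by counts and medians. Promoters came from RefSeq. Precision rests on 4 to 6 mice per group, and counting error is largest for Nfe2, with 4 to 262 counts per library.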

Additional observations from a re-analysis of the deposited data

Results flagged for a closer look

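In salmon filet, Adam11 in mouse 23 was 17.3 CPM, whose gap to the next mouse was 0.753 of the range of the 6 mice as labelled and 0.757 of the range of the 5 mice by column name, beyond Dixon's 95% critical value. In beef by column name, Ly6a in mouse 32 was 14.4 CPM, with a gap of 0.713 of the range of 5 mice. Over 24 sets of mice tested for the 4 genes, 3 passed, of which 2 are the same mouse, and chance gives about 1 in 20.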

How the results depend on the processing

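The decreases of Nfe2, Pdzk1ip1 and Ly6a with HFD kept their direction and stayed called in each of the other settings that gave a value, and Adam11 stayed without a call. With 1 mouse left out, the change was -1.88 to -1.30 for Nfe2, -1.49 to -0.88 for Pdzk1ip1 and -0.80 to -0.66 for Ly6a. The calls were lost in 3, 2 and 2 of 20 such fits. Requiring at least 10 counts in every sample removed Nfe2 from HFD versus chow and from the pairs with fishmeal, and the TPM minimum removed it from fishmeal versus beef. On limma's log2(TPM + 1) scale, which understates low genes by construction, fishmeal versus salmon filet for Nfe2 was -0.94. Ly6a in salmon filet versus beef ran from -0.65 to -0.02 with 1 mouse left out, the latter by column name without mouse 32. The leave-one-out fits by column name and DESeq2 by column name were chosen after seeing the data. The genes called in HFD versus chow were 986 to 1939 with 1 mouse left out. In fishmeal versus salmon filet they were 26, and 42 on all genes with at least 1 count, 82 with DESeq2, 98 with DESeq2 by column name and 18 to 41 with 1 mouse left out. In fishmeal versus beef the 1 gene called became 4 by column name, 10 on all genes with at least 1 count, 29 with DESeq2, 35 with DESeq2 by column name, 0 with limma, 4 in the fit on all 4 groups and 0 to 4 with 1 mouse left out. In salmon filet versus beef 0 became 2 with DESeq2 and 6 with DESeq2 by column name. The cause of these shifts was not tested. No paired analysis was possible because mouse numbers are not shared between groups and the replicate numbers only name the mice. Depth limits Nfe2 most, with 4 counts in fishmeal mouse 20.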
